A study of Drosophila melanogaster with 2 samples.

Results

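The microRNA genes of Drosophila melanogaster were examined for binding of the transcription factor Single-minded (Sim). They comprised every annotated gene with a symbol beginning with mir- on the nuclear chromosome arms, which includes bantam and let-7, listed as mir-ban and mir-let7. The annotation held 262 such genes, and the 260 on the arms were kept, of 17466 genes on the arms in all. Genes less than 10 kb apart were also joined into 198 loci, so that clusters could be counted once. The study profiled chromatin of whole embryos, aged 0 to 24 h, from flies that carry a sim-eGFP transgene. Sim fused to the green fluorescent tag was precipitated with an antibody to that tag, although the antibody field of the labels reads sim. There was 1 group with biological replicates 1 and 2, no untreated or wild-type group among the samples, and a control experiment named in the labels that was not analysed here. Chromatin came from all tissues together, so binding in a few cells and weak binding in many cannot be told apart. The lists hold peaks alone, and microRNA levels were not measured.

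A microRNA is a short RNA cut from a hairpin within a longer primary transcript. The Drosha and Pasha complex releases the hairpin in the nucleus, Dicer-1 trims it to a duplex, and Argonaute carries one arm to target messages, which are recognised mainly through the seed near the 5′ end of the microRNA. Some microRNAs have a transcript of their own, others lie in introns of protein-coding genes, and a class called mirtrons uses the ends of a spliced intron as the ends of the hairpin. Sim is a bHLH-PAS factor that directs the midline of the embryonic nervous system, and with its partner Tango it binds a DNA element whose core is ACGTG.

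The mature arms below belong to microRNAs near a Sim summit, a summit being the base at which the authors' list places the top of a peak. They were picked after their values were seen, as examples of clusters that share a peak or a seed and of single loci described below. They are RefSeq sequences written 5′ to 3′ with the seed, bases 2 to 8, in capitals. The first pair shares a seed, and the mir-92 pair and the trio from mir-13a to mir-2c do so too.
miR-279-3p: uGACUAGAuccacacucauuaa
miR-996-3p: uGACUAGAuuucaugcucgucu
bantam-3p: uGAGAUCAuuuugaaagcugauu
miR-9a-5p: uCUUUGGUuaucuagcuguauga
miR-276a-3p: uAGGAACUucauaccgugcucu
miR-92a-3p: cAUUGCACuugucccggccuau
miR-92b-3p: aAUUGCACuagucccggccugc
miR-13a-3p: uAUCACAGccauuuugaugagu
miR-13b-3p (from mir-13b-1): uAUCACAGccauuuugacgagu
miR-2c-3p: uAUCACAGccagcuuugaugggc
miR-34-5p: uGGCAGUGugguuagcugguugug
miR-277-3p: uAAAUGCAcuaucugguacgaca

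The DNA under 3 of the summits is shown to compare the strongest peak near any microRNA, a further peak with the ACGTG core, and a peak at an internal annotated start of the mir-276a host RNA. Each window of 101 bp is centred on a summit and given for the plus strand of dm6, and capitals mark the core as it reads on that strand.
mir-279 and mir-996, chr3R:29214388-29214488: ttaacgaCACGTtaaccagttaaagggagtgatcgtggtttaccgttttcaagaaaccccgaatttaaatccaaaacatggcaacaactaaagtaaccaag
mir-4943, chr2L:16533215-16533315: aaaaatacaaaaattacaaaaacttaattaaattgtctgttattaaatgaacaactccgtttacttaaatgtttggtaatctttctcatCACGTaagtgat
mir-276a, chr3L:10363827-10363927: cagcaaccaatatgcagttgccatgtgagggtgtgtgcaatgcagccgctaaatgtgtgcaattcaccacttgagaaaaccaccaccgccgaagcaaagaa
In both windows with a core, its middle base lay 41 bp from the summit, close to the edge of the window searched. The mir-276a window holds no core.

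Of the 260 microRNA genes, 49 had a summit of the pooled optimal list within 5 kb (18.8%, exact 95% binomial interval 14.3% to 24.1%). The optimal list is the deposited set of 2682 peaks that the authors kept at an irreproducible discovery rate of 0.01, using both replicates. Counted as loci, 42 of 198 had one (21.2%, 15.7% to 27.6%). Intervals here cover counting error only, and neighbouring genes are not independent. The same 5 kb window reached a summit at 30.0% of protein-coding genes, which are much longer than a hairpin, and at 24.1% of protein-coding 5′ ends taken as single points. It did so at 27.6% of snoRNA, snRNA and tRNA genes, which are short like hairpins, and at 24.1% of other non-coding RNA genes. Of all bases on the arms, 14.9% lay within 5 kb of a summit. The microRNA interval thus held the share of all bases and, at its upper bound, that of protein-coding 5′ ends, while the shares of whole protein-coding genes and small RNA genes lay above it.

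The difference from gene starts was proportionally larger close by. A summit lay within 500 bp of 4 microRNA genes (1.54%) and of 7.71% of protein-coding 5′ ends, within 1000 bp of 5.77% and 10.1%, and within 10000 bp of 33.5% and 37.9%. At 20000 bp the shares were 48.1% and 56.6%. No summit fell in a hairpin, and 0 of the 260 hairpins were overlapped by any base of an optimal peak. The closest summit lay 169 bp from mir-9378, followed by 340 bp for mir-9377, 346 bp for mir-4918 and 420 bp for mir-92a.

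**Figure D1:**
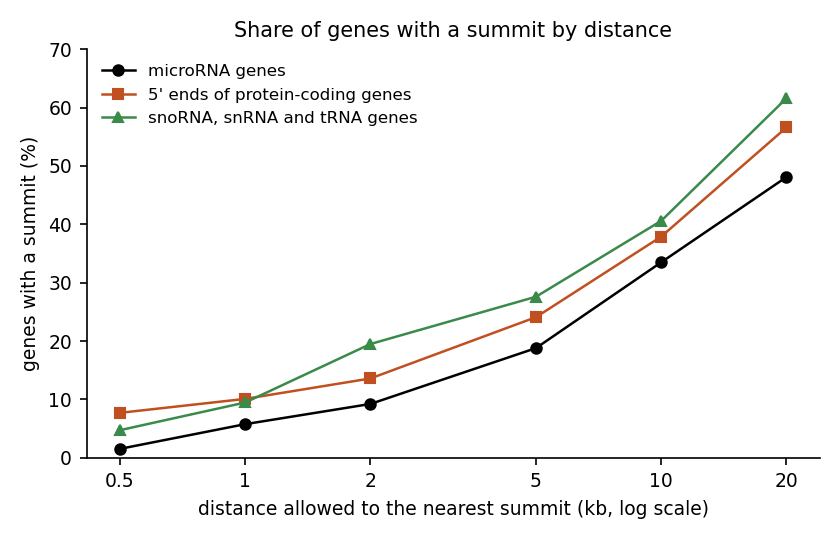
Share of genes with an optimal summit (y axis, %) within a given distance (x axis, kb, log scale), for 260 microRNA genes (circles), 5′ ends of protein-coding genes (squares) and snoRNA, snRNA and tRNA genes (triangles). The microRNA curve is the lowest at every distance drawn, from 1.54% at 500 bp to 48.1% at 20000 bp.

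Position relative to other genes divided the microRNAs. Those in a non-coding host, a long RNA that contains the hairpin and in 40 of 43 cases lies on its strand, had a summit in 16 of 43 cases (37.2%, 23.0% to 53.3%). Those in a protein-coding host on the same strand had one in 27 of 136 (19.9%, 13.5% to 27.6%), those in a protein-coding gene on the opposite strand in 2 of 30 (6.67%, 0.818% to 22.1%), and those between genes in 4 of 51 (7.84%, 2.18% to 18.9%). The intervals of the non-coding hosts and of microRNAs between genes do not overlap. Bases differed in the same order: 18.3% of bases in non-coding genes alone, 17.3% of those in protein-coding genes and 9.55% of those between genes were within 5 kb of a summit. MicroRNAs in protein-coding hosts on the same strand and those between genes were near these backgrounds. The interval of those in non-coding hosts lay above its share of bases but held the 24.1% of other non-coding RNA genes.

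The order of these 3 classes was the same in each replicate's own list, but the gap was smaller. In the replicate 1 list 11.6% of the microRNAs in non-coding hosts, 9.56% of those in protein-coding hosts on the same strand and 3.92% of those between genes had a summit. In the replicate 2 list these shares were 18.6%, 14.7% and 3.92%. Counted as loci, 12 of 29 with a non-coding host (41.4%, 23.5% to 61.1%) and 4 of 32 between genes (12.5%, 3.51% to 29.0%) had a summit in the optimal list, and these intervals overlap. The locus groups are not separate, because a locus with genes of both classes counts in each. That of mir-275 and mir-305, with its shared peak, counts as having a summit in both. Taking all hosts together, 45 of 209 microRNAs inside a host had one (21.5%, 16.2% to 27.7%).

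**Figure D2:**
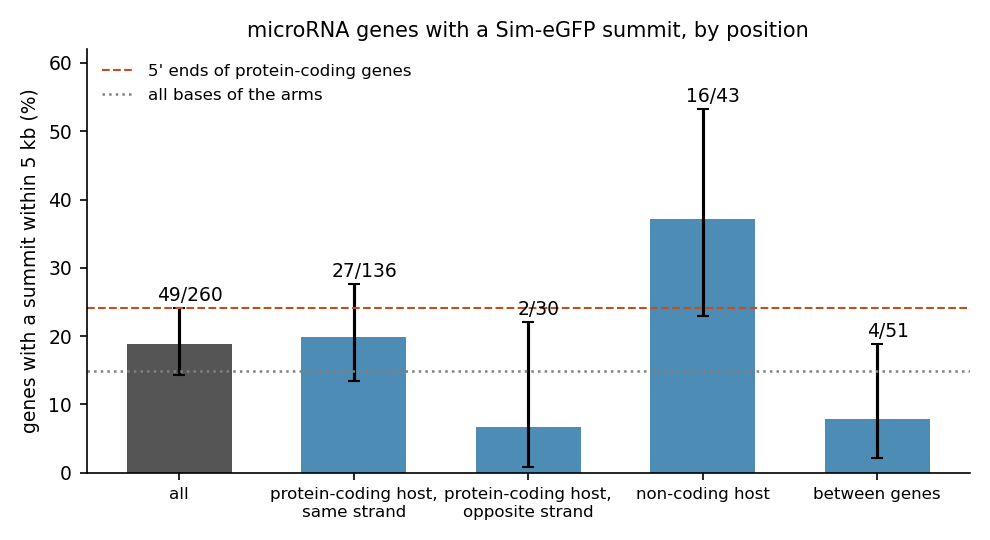
Share of microRNA genes with an optimal summit within 5 kb (y axis, %), for all and by position; bars give the share, whiskers the exact 95% binomial interval, and the numbers genes with a summit over genes in the class. The dashed line marks protein-coding 5′ ends (24.1%) and the dotted line all bases of the arms (14.9%); the class in non-coding hosts is highest at 37.2%.

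Other divisions gave smaller differences. Of 34 microRNAs whose hairpin fills an intron, as in mirtrons, 5 had a summit (14.7%, 4.95% to 31.1%), against 44 of the other 226 (19.5%, 14.5% to 25.2%). MicroRNAs numbered 1000 or more had one in 22 of 126 cases (17.5%, 11.3% to 25.2%), and the others in 27 of 134 (20.1%, 13.7% to 27.9%). Of 73 genes with a mature arm whose seed another gene shares, 18 had a summit (24.7%), and of the other 187 genes 31 did (16.6%). The intervals overlap in the first pair of divisions, and the seed shares carry no interval because such genes often lie in 1 cluster. By arm, leaving out arm 4, the share ran from 10.3% on X (6 of 58, 3.89% to 21.2%) to 29.0% on 3L (9 of 31, 14.2% to 48.0%), with overlapping intervals. The small arm 4 held 2 of the genes, and 0 had a summit.

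The strongest peak near a microRNA lay at the start of the mir-279 and mir-996 transcript. These microRNAs, which limit the formation of sensory neurons that detect carbon dioxide, sit in lncRNA:CR31044 on 3R. The peak spanned 29214331 to 29214546 (dm6), with its summit 124 bp from an annotated start of that RNA, 1147 bp upstream of mir-279 (29215585 to 29215684, plus strand) and 2746 bp upstream of mir-996 (29217184 to 29217280). Its signal value, a measure of peak strength from the authors' peak caller, was 467, rank 23 of the 2682 optimal peaks, and the ranked lists of the single replicates gave 172 in replicate 1 and 289 in replicate 2. This is the window above whose left end reads CACGT. A second peak of 169.87 lay downstream of both, 55 bp from a start of the translation elongation factor gene eEF1gamma, at 67.4 in replicate 1 and 106 in replicate 2. Both peaks were in both replicates' thresholded lists.

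The next loci had their peak at a start of a protein-coding gene or inside one. The peak nearest to mir-1004, a mirtron-like hairpin in CG43707 on 2L, had a signal value of 268 (88.2 in replicate 1, 177 in replicate 2) and lay 3822 bp downstream of it, 190 bp from a start of bowl, which encodes a zinc finger factor of the odd-skipped family. The peak for mir-9377 on X lay in an intron of Tis11, a gene for an mRNA decay factor, with 225 (129 and 95.9), 1348 bp downstream of the hairpin, and a weaker peak of 114 lay 340 bp from it. That for mir-1006, which fills an intron of the proton pump gene VhaSFD, had 204 (87.8 and 115) and lay in the cytochrome c gene Cyt-c-p, 939 bp from its start. For mir-1004 and mir-1006 the nearest start therefore belonged to a neighbour and not to the host.

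At 4 further leading loci the nearest start was that of the host. In the cGMP-dependent kinase gene for, host of mir-4972, the peak had a signal value of 182 (76.4 and 101). It lay 340 bp from a start of for and 4473 bp downstream of the hairpin. In Mob2, a gene for a kinase activator and host of mir-4968, it had 181 (86.0 and 90.4), 1459 bp from a start. In the transporter gene MRP, host of mir-9382, it had 155 (69.2 and 86.0), 193 bp from a start. Each of these was in both replicates' lists, and the replicates differed by less than 1.5 times. The starts nearest to these peaks are internal ones, within for, Mob2 and MRP. The peak upstream of CG5953, host of mir-4943, had 146 (52.8 and 103) and is the second window above with a core.

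The remaining leading loci were mir-955, mir-9a, mir-ban and mir-9378. Beside mir-955, between genes on 3L, lay 3 peaks with signal values of 136, 114 and 79.8, each within 500 bp of a start of the neighbouring gene CG14968. The bantam locus, a growth promoter that represses the cell death gene hid, had a peak on either side: 127 at 2050 bp downstream (50.2 in replicate 1, 76.9 in replicate 2) and 112 at 1461 bp upstream (48.9 and 61.9), the latter inside its transcript lncRNA:CR43334 and 1033 bp from a start. The peak for mir-9a, which limits the number of sensory organ precursors, had 131 (48.1 and 80.6) and lay 4326 bp upstream, 385 bp from a start of lncRNA:CR44676. It passed the threshold in replicate 2 alone, unlike the best peaks of the other 11 leading loci, which passed in both. The mir-9378 peak, in CG17124, had 127 (79.0 and 45.9).

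**Figure D3:**
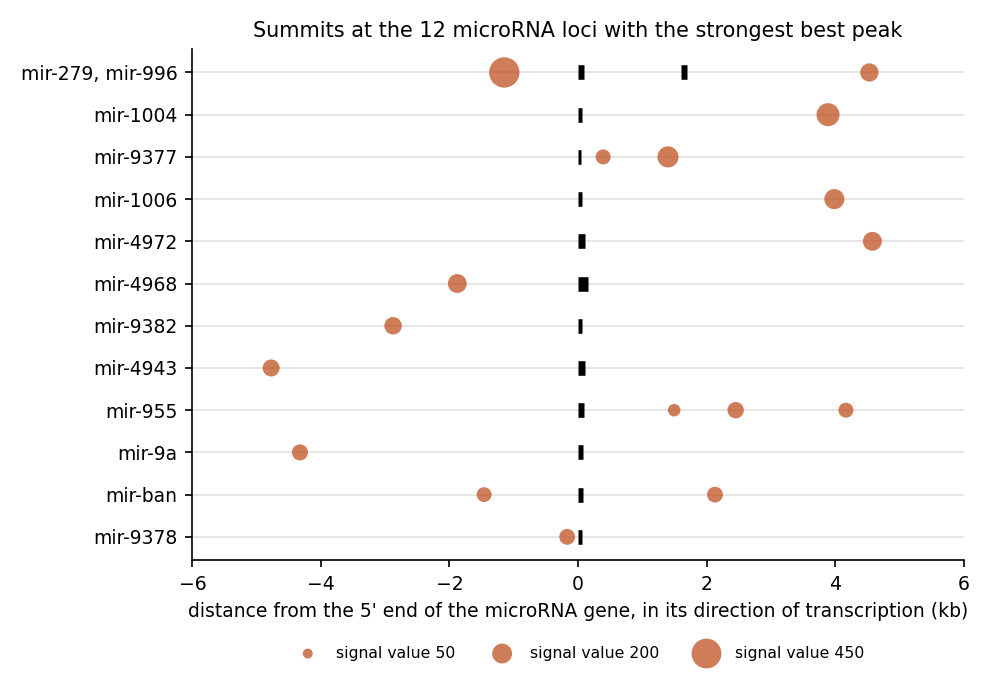
Positions of optimal summits (circles, area proportional to the signal value) at the 12 loci with the strongest best peak, as distance (x axis, kb) from the 5′ end of the first microRNA gene in its direction of transcription; black bars are hairpins. The largest circle is the peak upstream of mir-279 with a signal value of 467, and mir-ban has a summit on each side.

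Peaks at the starts of microRNA transcripts were examined on their own, because a hairpin can lie far from the promoter that serves it. Of the 29 non-coding hosts, 17 had a summit within 5 kb of the host (58.6%) and 7 within 500 bp of an annotated start (24.1%). Over all non-coding RNA genes other than microRNAs 4.98% had a summit within 500 bp of a start, and over protein-coding genes 9.35%. The hosts are long, with a median of 6436 bp against 714 bp for the non-coding RNA genes just counted. Among those of 5000 to 50000 bp, 6 of 18 hosts (33.3%) and 11 of 86 other genes (12.8%) had a summit within 500 bp of a start, and 11 (61.1%) and 35 (40.7%) within 5 kb. In the band of 2000 to 5000 bp, 0 of 9 hosts and 9 of 213 other genes (4.23%) had one at a start. The share within 5 kb was then 55.6% against 23.5%. Both counts are small, and genes with several annotated starts have more chances of a match.

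Besides mir-279 and mir-996, the transcripts with a summit at a start were those of mir-14, mir-10, mir-bft, mir-8, mir-276a and mir-282. For mir-14, which restrains cell death and fat storage, the summit lay 25 bp from the start of lncRNA:CR43651 on 2R (9552844 to 9553940), with a signal value of 89.4 (32.9 in replicate 1 and 49.8 in replicate 2). For mir-8, a regulator of growth and insulin signalling, it lay 95 bp from one of 2 annotated starts of lncRNA:CR43650, with 62.8 (31.4 and 33.6), and this peak held the core. That start is internal, as the host begins at 16829095 and the summit lies at 16830594 on 2R. For mir-276a, which acts in memory formation, it lay 142 bp from one of 4 annotated starts of lncRNA:CR46006, with 73.7 (26.7 and 43.9). That start is internal: the host begins at 10323501 and the summit lies at 10363877 on 3L. For mir-282 it lay 364 bp from one of 3 annotated starts of lncRNA:CR43626, with 83.7 (42.7 and 41.0). This start is internal too, as the host begins at 3249340 and the summit lies at 3250230 on 3L. These peaks were far weaker than the one at mir-279: that of mir-8 was in neither replicate's thresholded list, those of mir-14 and mir-276a in replicate 2 alone and that of mir-282 in replicate 1 alone.

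At mir-10 and mir-bft a summit lay at the start while the hairpin was outside the window. For mir-10, a microRNA of the Antennapedia Hox cluster, the summit lay 54 bp from the start of lncRNA:CR42651 but 6743 bp from the hairpin, with a signal value of 55.2 (29.5 in replicate 1, 25.4 in replicate 2), and it was in neither replicate's list. For mir-bft, the bereft gene that protects bristle organs of the eye and is also called mir-263a, it lay 55 bp from the start and 17536 bp from the hairpin, with 59.5 (25.7 and 38.6), in the replicate 2 list alone. Among the hosts next in order, summits lay 547 bp from the nearest annotated start for mir-375, 1018 bp for mir-275, 1033 bp for mir-ban and 1573 bp for mir-315.

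**Figure D4:**
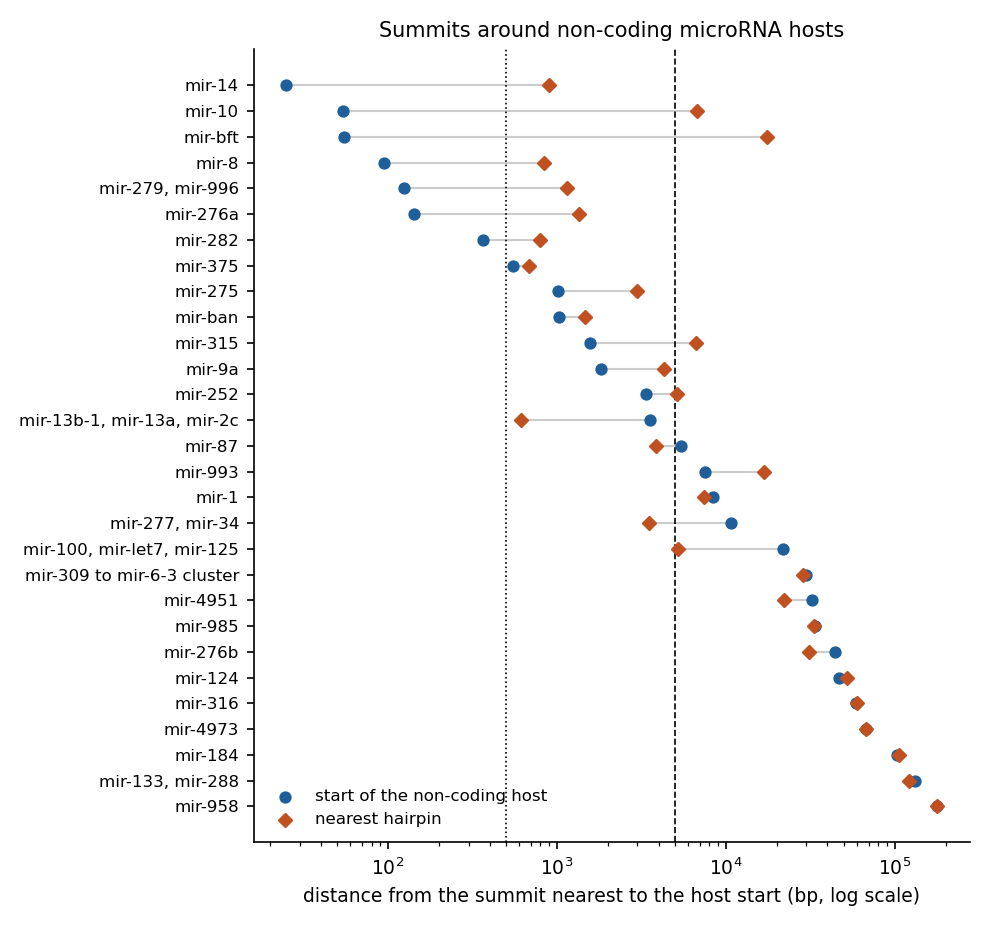
Non-coding hosts of microRNAs (rows) with the distance from the optimal summit nearest to a host start (x axis, bp, log scale) to that start (circles) and to the nearest hairpin of the host (diamonds); dotted and dashed lines mark 500 and 5000 bp. The 7 rows from mir-14 to mir-282 have a summit within 500 bp of a start, and for mir-10 and mir-bft the hairpin lies beyond 5000 bp.

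Protein-coding hosts on the same strand also carried summits often as whole genes, with 55 of 124 (44.4%) against 30.0% of all protein-coding genes. They are long, with a median of 13462 bp against 2164.5 bp. Length bands were drawn for protein-coding hosts of either strand together, leaving out genes under 5000 bp. In the band of 5000 to 20000 bp, 39.0% of these hosts and 39.3% of other genes had a summit. Between 20000 and 50000 bp these were 58.3% (21 of 36) and 47.5%, and in longer genes 78.9% (15 of 19) and 56.8%. Of the 45 hosted microRNAs with a summit, the nearest start of any gene belonged to the host for 28 and to another gene for 17. The best summit lay upstream of the hairpin for 30 of the 49 and downstream for 19.

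Several microRNAs in protein-coding hosts had a peak at an annotated start of the host. The peak of mir-33, a regulator of lipid metabolism within SREBP, lay 498 bp from a start of SREBP, with a signal value of 80.7 (29.6 in replicate 1 and 55.2 in replicate 2). That of mir-308 lay 18 bp from a start of the ribosomal protein gene RpS23, with 57.2 (11.8 and 53.0), the widest ratio between replicates among the 58 peaks. The peak of mir-92a and mir-92b, which act in the maintenance of neural stem cells, had 92.6 (32.5 and 48.9). It lay 226 bp from a start of their host jigr1, 420 bp downstream of mir-92a and 4378 bp upstream of mir-92b. That start is internal: jigr1 begins at 25637843 and the summit lies at 25647020 on 3R. The peak of mir-4918 lay 186 bp from the start of the THO complex gene tex, with 77.1 (39.5 and 28.6). In the first 3 the replicate 2 value was the higher one, and each of those peaks was in the replicate 2 list alone.

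Other peaks lay at the start of a neighbour. Ribosomal protein genes were nearest for mir-2495 (RpL37A, 21 bp, signal value 79.6) and mir-9372 (RpL36, 21 bp, 51.1). The nearest start was that of Myd88 for mir-987 (118 bp, 87.4), of msk for mir-2501 (92 bp, 65.1), of ewg for mir-980 (105 bp, 68.8), of slmo for mir-966 (122 bp, 63.7) and of CG4709 for mir-87 (33 bp, 124). A different case was mir-4957, which lies inside Top1 on the opposite strand: a pair of overlapping peaks lay 185 bp and 14 bp from starts of Top1, with 94.5 and 14.3. Over all 58 peaks, 33 had a summit within 500 bp of a start of any gene, a count not made for the other optimal peaks. A protein-coding start was that close for 25 of the 58 (43.1%), against 40.2% of the other 2624 optimal peaks.

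Clusters shared peaks. Of the 58 distinct peaks near microRNA genes, 9 were near more than 1 of them. The peak inside the translational repressor gene Fmr1 had a signal value of 62.5 (35.3 in replicate 1 and 24.5 in replicate 2). It lay downstream of mir-277 (4430 bp) and mir-34 (3517 bp), microRNAs that act in amino acid metabolism and in ageing. The start of their host lncRNA:CR43459 was 10790 bp away. The peak upstream of mir-275 and mir-305 had 67.5 (26.5 and 37.5), 1018 bp from the start of lncRNA:CR43857. A pair of overlapping peaks in Atx2 with 53.1 and 16.9 lay downstream of mir-13b-1, mir-13a and mir-2c, whose family represses the cell death genes reaper and grim. The closer of them was 3577 bp from a start of the host lncRNA:CR45911. None of these peaks passed in a single replicate's list. The pair in Oda near mir-281-1 and mir-281-2 had 64.5 and 62.6, and the weaker one was in the replicate 2 list.

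The other microRNAs with a summit had best peaks with signal values between 53.1 and 112. They were mir-4981 (112, between genes, with a second peak of 64.5), mir-9383 (103, 141 bp from the start of CG12241), mir-4962 (99.96, in the kinase gene Tlk), mir-375 (95.4, with further peaks of 74.2 and 60.5), mir-2281 (94.6, outside any gene, beyond the 3′ end of its host cv-c), mir-4975 (90.7) and mir-1013 (90.0, in the Hippo pathway kinase gene wts). Lower in rank were mir-4941 (65.3, in the Wnt deacylase gene Notum), mir-2496 (63.5) and mir-4967 (53.1, in Pka-R2). Of the 49 genes, 32 had 1 summit within 5 kb, 14 had 2 and 3 had 3.

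Within seed families, a summit lay near some members and not others. The AUCACAG seed of mir-2, mir-6, mir-11, mir-13 and mir-308 belongs to 14 genes in 7 loci, of which 4 genes in 2 loci had a summit. Which members these were depended on the list. In the conservative list mir-13a, mir-13b-1, mir-2c and mir-308 had none within 5 kb. There mir-2a-1 (2955 bp), mir-2a-2 (3366 bp), mir-2b-2 (2663 bp) and mir-11 (3929 bp) had one. The mir-92 and mir-310 seed AUUGCAC belongs to 6 genes, and only mir-92a and mir-92b, which share 1 peak, had one. The mir-9 seed CUUUGGU belongs to 3 genes, and mir-9a alone had one. Of mir-276a and mir-276b, which share a seed, mir-276a had a summit, and the nearest to mir-276b lay 31072 bp away. The GACUAGA seed belongs to mir-279 and mir-996, with their shared peaks, and to mir-286, which had none.

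Of 53 microRNAs listed as well known, 16 had a summit within 5 kb, beside 49 of all 260 microRNA genes (18.8%). The list counts clustered genes that share a peak, such as mir-279 and mir-996, separately. Of the 37 without a summit, 10 had their nearest within 10 kb and 9 beyond 50 kb. Just outside lay the let-7 complex, which times the larval to adult transition: the nearest summit was 5180 bp from mir-125, 5493 bp from mir-let7 and 6071 bp from mir-100, and it belonged to a peak with a signal value of 222 (99.3 in replicate 1, 118 in replicate 2). Also near the boundary were mir-11 (5412 bp) in E2f1 and mir-2a-1 (5772 bp) in the EGFR ligand gene spi. In the conservative list both had a summit inside the window, at 3929 bp and 2955 bp. Just inside were mir-2281 (4982 bp), mir-2501 (4910 bp), mir-4943 (4774 bp) and mir-4972 (4473 bp). The muscle microRNA mir-1 had its nearest summit at 7381 bp, mir-315 at 6626 bp, mir-283 at 8836 bp and mir-304 at 9839 bp.

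The other well-known microRNAs without a summit lay farther away. The neuronal mir-124 had its nearest at 52072 bp, mir-7 at 60416 bp, mir-184 at 106027 bp and mir-133 at 121705 bp. The mir-309 cluster, which clears maternal messages at the maternal to zygotic transition, lay 29507 bp away at mir-309 and 28804 bp at mir-6-1. The bithorax microRNAs mir-iab-4 and mir-iab-8 shared a distance of 18198 bp. Distances for the rest of the list ran from 10353 bp (mir-12), 10981 bp (mir-9b), 11165 bp (mir-79), 12081 bp (mir-989), 13334 bp (mir-317), 17814 bp (mir-263b) and 19566 bp (mir-278) to 42321 bp (mir-1000) and 86000 bp (mir-995). In between lay mir-932, mir-190, mir-3, mir-137, mir-13b-2, mir-310, mir-316, mir-193 and mir-219. Some of these distances depended on the list: in the list of replicate 2 the nearest summit to mir-184 was 8882 bp away and in that of replicate 1 it was 170276 bp away.

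The peaks near microRNAs were set beside the other optimal peaks, and the shares for overlap and core below lie within the intervals of the former. Both replicates' thresholded lists overlapped 22 of the 58 (37.9%, 25.5% to 51.6%) and 30.7% of the others, and neither list overlapped 21 (36.2%) and 34.3%. The median signal value was 82.2 against 74.9. GC content within 50 bp of the summit averaged 38.2% (SD 11.3, n = 58 peaks) against 35.8% (SD 10.9). The ACGTG core, searched on both strands, was present at 4 of the 58 (6.90%, 1.91% to 16.7%) and at 7.28% of the others. The 4 were those at mir-279 with mir-996, at mir-4943, at mir-8 and the weakest of 3 near mir-14.

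Between replicates the same peaks carried unequal values. The ranked lists gave both replicates a value at all 58 peaks, and 42 were higher in replicate 2 and 16 in replicate 1, with medians of 43.1 and 38.4. In the other 2624 optimal peaks the medians were 43.4 in replicate 2 and 35.2 in replicate 1, so the imbalance was not particular to these peaks. Overlapping pairs, as at mir-4957, carry the same replicate values and count as separate peaks. By gene, 19 microRNAs had a summit in both replicates' thresholded lists and 2 in replicate 1 alone (mir-282 and mir-2281). Another 13 had one in replicate 2 alone, among them mir-4970, which had none within 5 kb in the optimal list. A further 16 had one in the optimal list but in neither replicate's list. Replicate 2 had the longer list, with 1676 peaks against 1071, and the share of protein-coding 5′ ends within 5 kb of a summit was likewise 16.9% against 11.3%. The shares of microRNA genes were 12.3% and 8.08%, below those of 5′ ends in each. Sequencing depth is unknown, and its part in this difference was not tested.

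**Figure D5:**
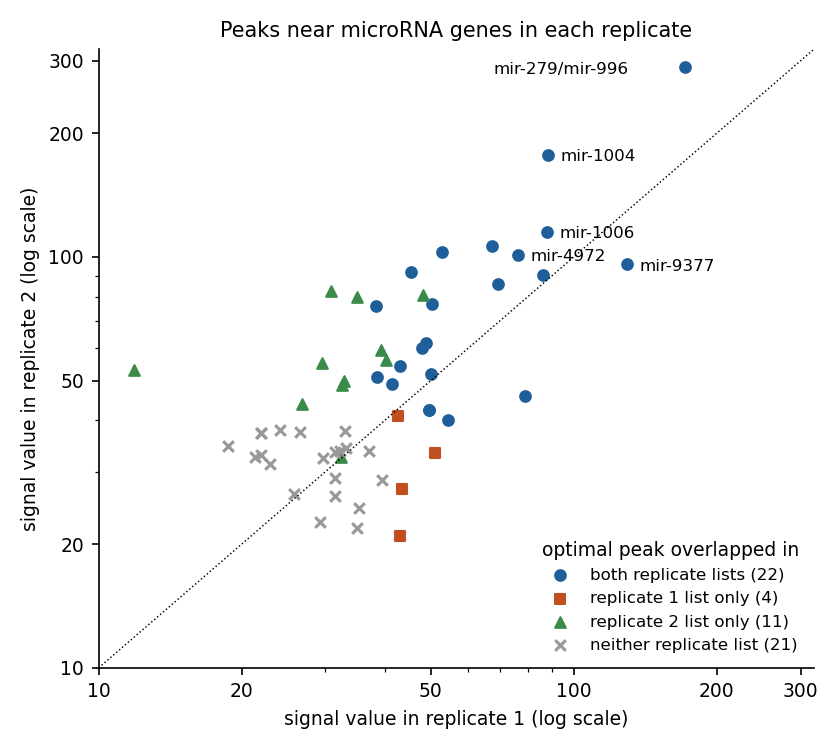
Signal values of the 58 optimal peaks near microRNA genes in replicate 1 (x axis) and replicate 2 (y axis), both on log scales and read from each replicate's ranked list; symbols show which thresholded replicate lists overlapped the peak, and the dotted line marks equal values. Most points, 42, lie above the line, and the peak of mir-279 and mir-996 is the highest at 172 and 289.

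Genes for proteins that make or use microRNAs were described for comparison, with 9 of 20 (45.0%) having a summit within 5 kb against 30.0% of protein-coding genes. This comparison was not matched for gene length, and longer genes had a summit more often, as the length bands above show. The direction turned in the replicate 2 list, at 4 of 20 against 21.9%, and among the 1341 optimal peaks of highest signal value, at 3 of 20 against 18.6%. In the processing steps, pasha, the partner of Drosha, had a peak with a signal value of 284 at 1803 bp, 14 bp from a start of its neighbour Mnat9. The Dicer-1 partner gene loqs had one of 126, 117 bp from a start of CG7099, and drosha and Dcr-1 had none. Among effectors, the GW182 gene gw had a peak of 58.7 at 164 bp from its own start, and AGO1 a best peak of 51.9 near a start of shot. AGO2 had none within 5 kb.

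The other pathway genes with a summit were regulators. The TRIM-NHL gene brat, whose protein represses translation and restrains neural stem cell growth, had a best peak of 249 inside the gene, 699 bp from a start, and its relative wech had 59.1 near a start of Coop. Fmr1 had the peak of 62.5 that it shares with mir-277 and mir-34. The uridyltransferase gene Tailor had 67.9 near alphaTub84B, and the trimming exonuclease gene Nbr had 65.3 near E2f2. Of the 9 best peaks, those of gw, brat and Fmr1 had their nearest start at the listed gene itself. Dcr-2, r2d2, Ranbp21, Ars2, Hen1, mei-P26, Dis3l2 and lin-28 had no summit in the window.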

How the data were processed

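Peaks came from chromatin immunoprecipitation sequencing of 2 biological replicates. The authors deposited peak lists in dm6, with a signal value and a score for each peak. The deposited signal is the peak caller's strength. The deposited score scales the irreproducible discovery rate, with 830 standing for 0.01, the lowest in the optimal list. The software for alignment and peak calling was not given in the sources used here. Depth is unknown. In each of the 2 pooled ranked lists, 8 further columns with values of the compared sets were not used here.

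Summits were set against genes of Ensembl release 115 (BDGP6), whose arms match dm6, and bases and mature microRNAs were read from RefSeq. The principal window was 5 kb from the hairpin. Replicate values are the signal of overlapping peaks in each replicate's ranked list. All 260 members matched a RefSeq mature sequence. A hairpin with both ends within 3 bp of the ends of an intron fills that intron. Shares have exact (Clopper-Pearson) 95% binomial intervals. No test across samples was possible with 1 group. The distance code was tested on simulated data with known distances.

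Members and lists were chosen with earlier results of these data known. Every microRNA with a summit is named or counted under its locus, in depth for the 12 loci with the strongest best peak; 53 well-known microRNAs and 20 pathway genes come from written lists. The pathway gene listed as nbr was matched to Nbr, and mir-263a to mir-bft. Alternatives covered the peak list, each replicate, stronger peaks, other windows, host definitions and motif windows. Figures used matplotlib 3.10.9. Intervals used scipy 1.17.1, and tables were handled with pandas 2.3.3 and numpy 2.4.6 under Python 3.11.15.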

Additional observations from a re-analysis of the deposited data

How the results depend on the processing

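No paired analysis was possible because the series has 1 group. With windows of 1 kb, 2 kb and 10 kb, 15, 24 and 87 microRNA genes, 13, 21 and 73 loci, and 13, 21 and 79 microRNAs inside hosts had a summit. Between genes 2 and 8 did at 1 kb and 10 kb, and of the pathway genes 4 did at 1 kb. With the 1341 optimal peaks of highest signal value the counts were 30 genes, 28 inside hosts, 2 between genes and 3 pathway genes. With the list of a single replicate, in the order replicate 1 list and replicate 2 list, they were 21 and 32 genes, 20 and 28 loci, 19 and 30 inside hosts, 2 and 2 between genes, and 5 and 4 pathway genes. Of the 49 named microRNAs, 21 and 31 kept a summit in these lists and 41 in the conservative list, whose total of 47 genes included 6 others. Protein-coding hosts on the same strand alone gave 27 of 136, and all microRNAs outside protein-coding genes 20 of 94. Within 25 bp of the summit 1.72% of peaks held the core. In every list and window tried, the share of microRNA genes was below that of protein-coding 5′ ends. Of the 52 alternative values of summary counts and shares, 23 stayed within 1.5 times or the interval of the value reported and 29 did not. Why the values moved was not tested beyond what fewer peaks or a narrower window fix by construction. Unknown depth limits what the absence of a peak shows.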
